A study of Mus musculus with 6 samples.

Results

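Voltage-gated calcium channel subunits were followed in sorted mouse islet cells through 10 genes, taken by symbol from the 46932 gene symbols of the expression table: the pore-forming subunits Cacna1a, Cacna1b, Cacna1c, Cacna1d, Cacna1e, Cacna1g and Cacna1h, the cytoplasmic subunits Cacnb2 and Cacnb3, and the extracellular subunit Cacna2d1. All 10 symbols were found. Cacna1e reached at most 0.207 RPKM in any library and was not tested, so 9 of the 10 entered the tests. The transdifferentiated cells carried both an insulin reporter and the lineage label of delta cells. They are set against beta cells, which carried the insulin reporter, and against delta cells, which carried the lineage label.

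All 3 populations came from adult mice with the same alleles: mIns1-H2b-mCherry, a nuclear red reporter under an Ins1 promoter, Sst-cre, a recombinase under the somatostatin promoter, and a floxed YFP allele that the recombinase switches on. The lineage label therefore marks cells in which the somatostatin promoter has been active at some time, and the sort defines the populations by these reporters alone. Each sample pooled the islets from 10 to 12 animals of 1 sex, and each population has 1 library from a male pool (replicate 1) and 1 from a female pool (replicate 2). The islets spent a night in culture at 5.5 mM glucose with 10% serum and were dispersed with 0.25% trypsin before sorting, in all groups alike. The series text mentions an alpha-cell origin once. Its title, the sample labels and the Sst-cre allele all give delta cells, and this was followed.

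Values are RPKM (reads per kilobase of transcript and per M reads), which scale the levels of genes for length. Comparisons between genes depend on the length assigned to each. For all annotated exons joined, this was 21191 bp for Cacna1c and 9763 bp for Cacna1h. The denominators recovered from the table were 12.5 and 10.9 M reads for the transdifferentiated, 21.6 and 20.5 M for the beta and 17.0 and 15.7 M for the delta libraries. Ins2 held 17.9% and 18.6% of the summed RPKM in the transdifferentiated libraries, 41.3% and 34.8% in the beta libraries and 0.305% and 0.360% in the delta libraries. The median log2 fold change over the 13022 genes tested was not at 0: it was 0.32 for transdifferentiated against beta, -0.03 for transdifferentiated against delta and -0.36 for beta against delta cells. After median-of-ratios scaling, which sets a common scale from all detected genes, these medians were -0.08, -0.02 and 0.04, and the share of calls that were higher moved to 45.4%, 46.0% and 52.5%, against 83.4%, 43.5% and 20.2% without it. The fixed lists of delta and beta markers followed the sort. The 4 delta markers summed to 13497 to 13581 RPKM in transdifferentiated, 79.6 to 96.5 in beta and 51759 to 60657 in delta libraries. The 6 beta markers summed to 85832 to 93722, 220791 to 309279 and 1430 to 1754 RPKM in the same order of populations. The 5 alpha markers and the PP marker Ppy were highest in the delta libraries, at 15138 to 16506 and 15817 to 16735 RPKM. The acinar markers ran from 256 to 6636 RPKM in the beta libraries. In sorted pools of this kind, a smaller number of cells that express a gene and less RNA per cell cannot be told apart.

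Voltage-gated calcium channels open on depolarisation and let calcium into the cell. Each is built around a pore-forming alpha1 subunit, which sets the current type, and high-voltage-activated channels add a cytoplasmic beta subunit and an extracellular alpha2delta subunit that help bring the pore to the membrane and tune its gating. In beta cells, closure of ATP-sensitive potassium channels depolarises the membrane. In islet cells, calcium entry through voltage-gated calcium channels triggers exocytosis of insulin, glucagon or somatostatin. L-type channels carry a large part of the current in mouse beta cells, and T-type channels differ from the others in opening at voltages near rest.

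Fold changes are differences of log2(RPKM + 1), given with their standard error (SE) and the limma p-value adjusted over the 13022 genes, and a gene was called at an adjusted p under 0.05. The labels describe no replicates other than the pools, so the spread behind a p-value is that between the 2 libraries of a population. The fit pooled this spread over the 3 populations and moderated it toward that of genes at a similar level. In transdifferentiated against beta cells, 9 of the 9 tested subunits were called higher and 0 lower. The same threshold called 51.0% of all genes tested in that comparison, 42.5% higher and 8.46% lower. In transdifferentiated against delta cells, 0 subunits were called higher and 3 lower, Cacna1g, Cacna1h and Cacnb3, against a background of 12.7% of all genes, 5.53% higher and 7.20% lower. In beta against delta cells, 0 were called higher and 7 lower, against 57.9% of all genes, 11.7% higher and 46.3% lower. In each comparison the count of 0 in the other direction was also 0 at an unadjusted limma p under 0.05. The higher count against beta cells was 6 of 9 after median-of-ratios scaling and 6 of 9 when the scale was set without Ins1 and Ins2, the calls lost being those of Cacna1c, Cacna1d and Cacnb3. Of all genes, 25.1% were then called higher and 30.3% lower after median-of-ratios scaling, and 35.0% were called higher when the scale was set without Ins1 and Ins2. The median log2 fold change of the 9 tested subunits was 1.06, -0.16 and -1.11 in these 3 comparisons. Cacna1g and Cacna1h passed the expression filter through the transdifferentiated and delta libraries alone, so a difference from beta cells was built into their being tested. The comparisons share libraries, and their counts are not independent of each other.

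**Figure D1:**
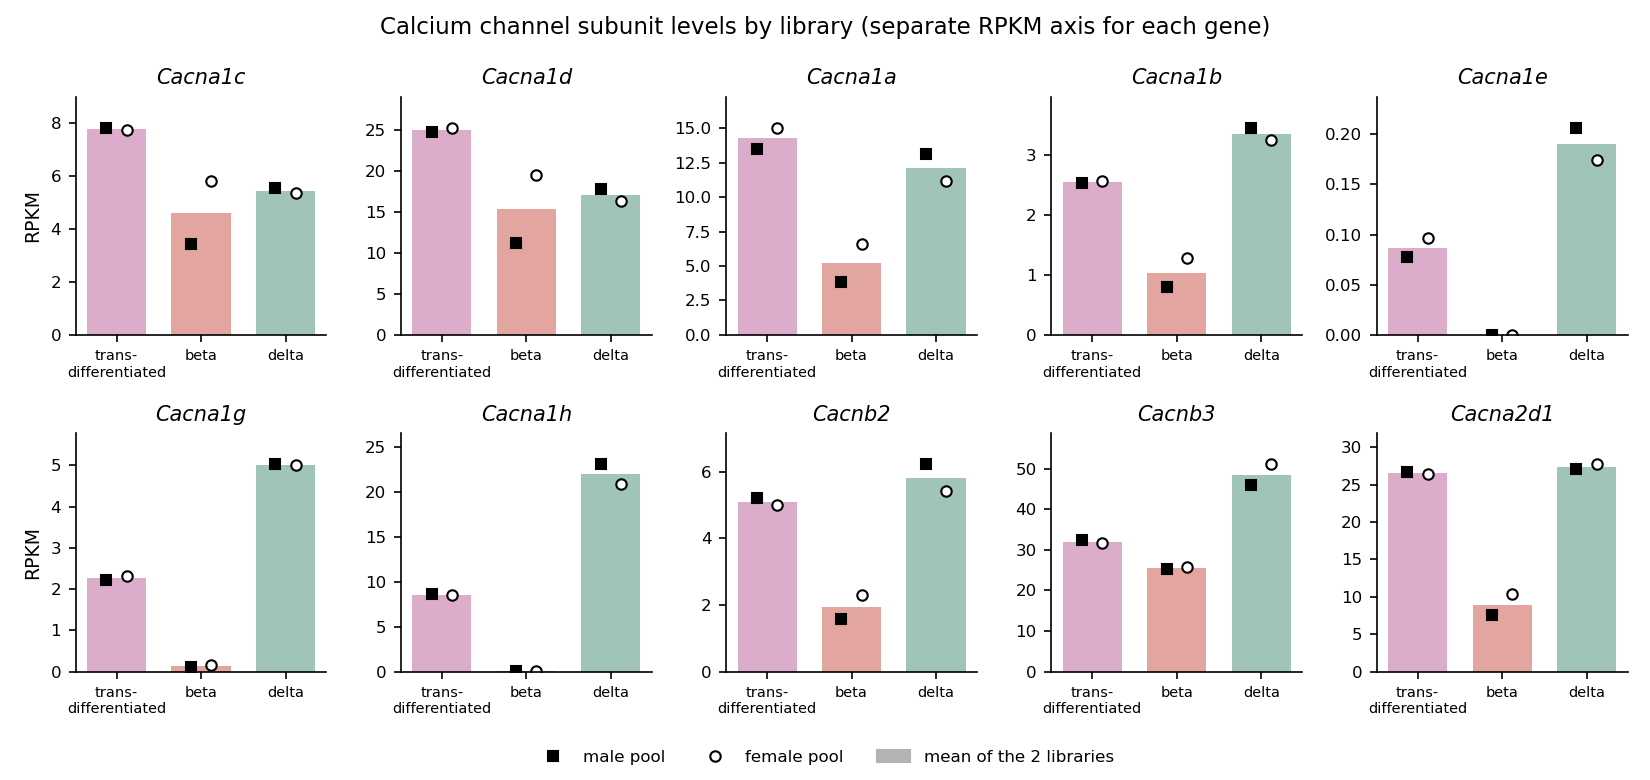
RPKM of the 10 calcium channel subunit genes in transdifferentiated, beta and delta cells. Squares are male pools, open circles are female pools and bars are means of the 2 libraries. Cacna1h lies at 8.60 and 8.48 RPKM in transdifferentiated cells, with beta cells at 0.0855 and 0.105 RPKM and delta cells at 23.1 and 20.9 RPKM.

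Of the 10 genes, the T-type pore genes Cacna1h and Cacna1g separated the 3 populations most widely. Cacna1h, which encodes a low-voltage-activated pore (GRCm38 chromosome 17, 25374285 to 25433783, minus strand), had 8.60 and 8.48 RPKM in the male and female transdifferentiated libraries, 0.0855 and 0.105 RPKM in beta and 23.1 and 20.9 RPKM in delta libraries. The 3 populations did not overlap, and the transdifferentiated libraries lay nearly level with each other between the other populations. These levels corresponded to about 1052 and 902 reads in transdifferentiated, 18 and 21 reads in beta and 3821 and 3192 reads in delta libraries, so the beta level carries the largest counting error. The log2 fold change was 3.12 (SE 0.11, limma adjusted p = 3.51e-05) against beta cells. It was -1.27 (SE 0.11, limma adjusted p = 0.00138) against delta cells. Because the pseudocount compresses low values, the ratio of mean RPKM between transdifferentiated and beta cells, 89.6, is larger than the first fold change conveys, and a smaller pseudocount gave a log2 fold change of 5.47.

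Cacna1g, a second T-type pore gene (chromosome 11, 94408391 to 94474198, minus strand), had 2.22 and 2.33 RPKM in transdifferentiated, 0.110 and 0.150 RPKM in beta and 5.02 and 5.002 RPKM in delta libraries. The order of the populations was the one seen for Cacna1h, again without overlap. Transdifferentiated cells were higher than beta cells by 1.53 (SE 0.12, limma adjusted p = 0.000257) and lower than delta cells, with a log2 fold change of -0.88 (SE 0.12, limma adjusted p = 0.00554). With the smaller pseudocount the difference from beta cells was 3.37. In beta against delta cells the log2 fold changes were -2.41 for Cacna1g (SE 0.12, limma adjusted p = 1.98e-05) and -4.39 for Cacna1h (SE 0.11, limma adjusted p = 2.53e-06). Both genes kept their calls in all 3 comparisons in each of the 13 settings run. An exon of Tpsg1 on the other strand overlaps Cacna1h by 158 bp, but Tpsg1 did not exceed 0.115 RPKM.

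The remaining T-type gene, Cacna1i, was not among the 10 but shared this order. It had 1.45 and 1.59 RPKM in transdifferentiated, 0.0235 and 0.0446 RPKM in beta and 4.28 and 4.66 RPKM in delta libraries. It was called higher than in beta cells (log2 fold change 1.28, SE 0.12, limma adjusted p = 0.000532) and lower than in delta cells (log2 fold change -1.12, SE 0.12, limma adjusted p = 0.00296).

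The L-type pore genes behaved differently, with their highest levels in the transdifferentiated libraries. Cacna1d, which encodes the L-type pore that opens at the less depolarised voltages (chromosome 14, 30039939 to 30491455, minus strand), had 24.8 and 25.3 RPKM in transdifferentiated, 11.2 and 19.6 RPKM in beta and 17.8 and 16.3 RPKM in delta libraries. Cacna1c, the other L-type pore of islet cells and of heart muscle (chromosome 6, 118587240 to 119196418, minus strand), had 7.82 and 7.74 RPKM in transdifferentiated, 3.41 and 5.79 RPKM in beta and 5.55 and 5.34 RPKM in delta libraries. For both genes the male beta library was the lowest of the 6 and the female beta library lay above the delta libraries, so that beta and delta cells overlapped. Transdifferentiated cells were higher than beta cells by 0.72 for Cacna1d (SE 0.23, limma adjusted p = 0.0375) and by 0.68 for Cacna1c (SE 0.20, limma adjusted p = 0.0271). Against delta cells the log2 fold changes of 0.53 for Cacna1d (SE 0.23) and 0.45 for Cacna1c (SE 0.20) did not pass, with limma adjusted p of 0.203 and 0.213. Between beta and delta cells neither passed, at -0.19 for Cacna1d (limma adjusted p = 0.506) and -0.24 for Cacna1c (limma adjusted p = 0.341).

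These L-type values depended on single libraries and on the scale. The calls against beta cells were lost when either transdifferentiated library was left out, with limma adjusted p of 0.104 and 0.0906 for Cacna1c and 0.118 and 0.12 for Cacna1d, and for Cacna1d also without either delta library (0.0552 and 0.0567). Leaving out the male beta library gave differences from beta cells of 0.34 for Cacna1d and 0.37 for Cacna1c, and leaving out the female one gave 1.10 and 0.99. With either beta library left out, the standard errors were smaller and both genes were called higher in transdifferentiated than in delta cells, with limma adjusted p between 0.0151 and 0.0261. After median-of-ratios scaling, Cacna1d stood at 21.7 and 22.9 in transdifferentiated, 14.5 and 23.1 in beta and 15.5 and 14.7 in delta libraries, so that transdifferentiated and beta cells overlapped and the call was lost (log2 fold change 0.27, limma adjusted p = 0.286). Cacna1c lost its call on that scale as well (0.28, limma adjusted p = 0.208). The exons of Chdh, on the other strand, overlap Cacna1d by 589 bp, and Chdh did not exceed 0.948 RPKM. Whether counting used strand is not stated in the sources.

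Among the pore genes of the P/Q, N and R types, which are best known for triggering transmitter release at nerve terminals, Cacna1a and Cacna1b were higher in transdifferentiated than in beta cells and did not pass the test against delta cells. Cacna1a, the P/Q-type pore (chromosome 8, 84388440 to 84640246, plus strand), had 13.5 and 15.1 RPKM in transdifferentiated, 3.85 and 6.56 RPKM in beta and 13.1 and 11.2 RPKM in delta libraries. The transdifferentiated libraries were above all others, but the lower of them exceeded the male delta library by less than the libraries of either group differed. The difference from beta cells was 1.33 (SE 0.21, limma adjusted p = 0.00295). It was 0.22 from delta cells (SE 0.21, limma adjusted p = 0.585). The antisense gene Gm16183 shares 227 bp with Cacna1a exons and reached 2.46 RPKM, so reads of these 2 genes cannot be told apart there.

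Cacna1b, the N-type pore (chromosome 2, 24603887 to 24763152, minus strand), had 2.53 and 2.57 RPKM in transdifferentiated, 0.798 and 1.28 RPKM in beta and 3.46 and 3.25 RPKM in delta libraries. Transdifferentiated cells lay above beta cells and below delta cells in both pools. The difference from beta cells was 0.81 (SE 0.15, limma adjusted p = 0.00474), and that from delta cells was -0.30 (SE 0.15, limma adjusted p = 0.264). Cacna1e, the R-type pore (chromosome 1, 154390731 to 154884501, minus strand), had 0.0772 and 0.0961 RPKM in transdifferentiated cells, was listed at 0 in both beta libraries and had 0.207 and 0.175 RPKM in delta cells. R-type current has been linked to somatostatin release from mouse delta cells, and the gene was the lowest of the 10 in every library. When no expression filter was applied, Cacna1e was lower in beta than in delta cells by a log2 fold change of -0.25 (limma adjusted p = 0.00732) and did not pass between transdifferentiated and beta cells (0.12, limma adjusted p = 0.0630) or between transdifferentiated and delta cells (-0.13, limma adjusted p = 0.122).

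**Figure D2:**
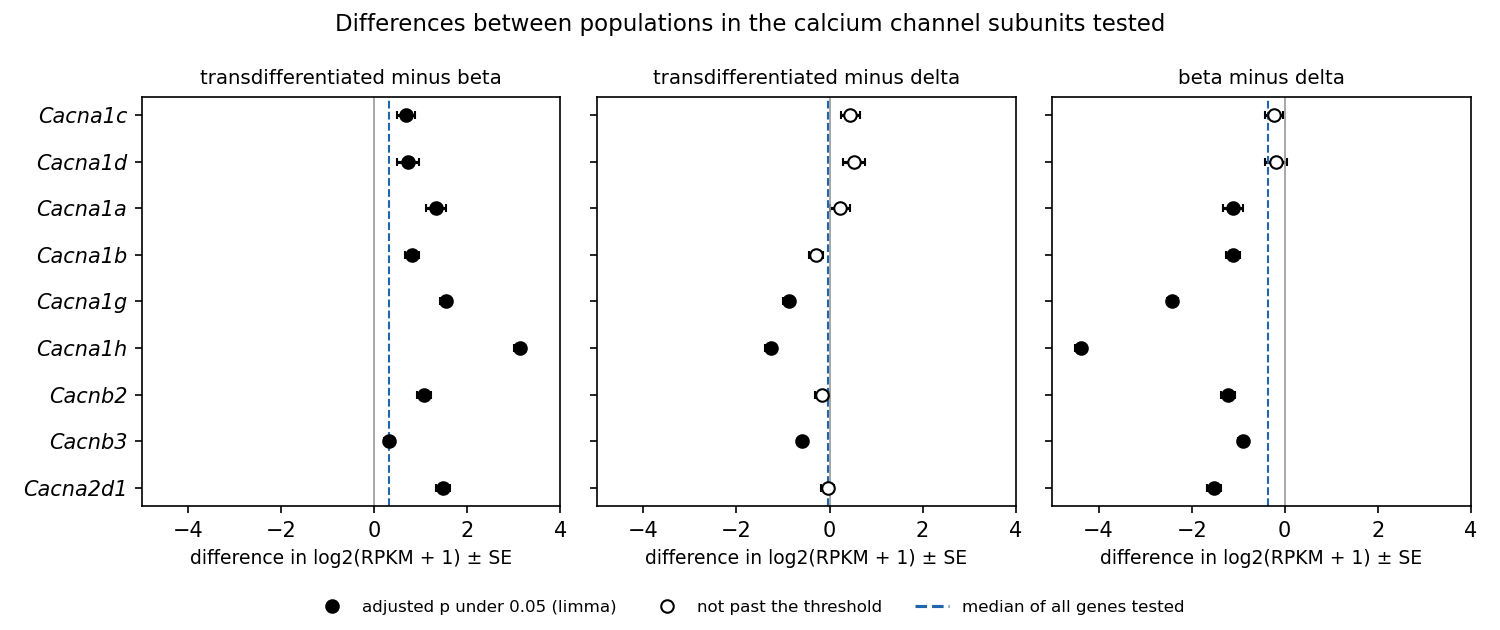
Log2 fold changes with standard errors for the 9 tested subunits in the 3 comparisons. Filled symbols have a limma adjusted p under 0.05 and the dashed line marks the median of the 13022 genes tested. Cacna1h spans the widest range, with 3.12 against beta cells and -1.27 against delta cells for the transdifferentiated libraries.

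The auxiliary beta subunits differed in how far the populations lay apart. Cacnb3, a main beta subunit of islet cells that in mouse also limits calcium signalling in beta cells (chromosome 15, 98630840 to 98644529, plus strand), was the highest of the 10 genes in every library. It had 32.3 and 31.7 RPKM in transdifferentiated, 25.4 and 25.7 RPKM in beta and 45.9 and 51.1 RPKM in delta libraries. The 3 populations did not overlap. The difference of transdifferentiated from beta cells was 0.32 (SE 0.11, limma adjusted p = 0.0428), about the median of all genes, and it turned to -0.14 (limma adjusted p = 0.312) after median-of-ratios scaling. Against delta cells it was -0.58 (SE 0.11, limma adjusted p = 0.0157), a call lost when either transdifferentiated or either delta library was left out, with limma adjusted p between 0.0711 and 0.178, and when the scale was set without Ins1 and Ins2 (0.131).

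Cacnb2, the beta subunit that partners L-type channels in heart (chromosome 2, 14603088 to 14987908, plus strand), had 5.21 and 5.01 RPKM in transdifferentiated, 1.59 and 2.30 RPKM in beta and 6.22 and 5.43 RPKM in delta libraries. Transdifferentiated cells stood close to delta cells and well above beta cells. Antisense genes that overlap Cacnb2 exons did not exceed 0.162 RPKM. The log2 fold change of Cacnb2 was 1.06 against beta cells (SE 0.15, limma adjusted p = 0.00185) and -0.16 against delta cells (SE 0.15, limma adjusted p = 0.567). Cacnb1, a beta subunit outside the 10 genes that is known from skeletal muscle, had 7.84 and 8.47 RPKM in transdifferentiated, 2.30 and 2.10 RPKM in beta and 15.0 and 15.8 RPKM in delta libraries. It lay between the other populations, above beta cells by 1.51 (SE 0.11, limma adjusted p = 0.000232) and below delta cells with -0.84 (SE 0.11, limma adjusted p = 0.00505).

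Among the alpha2delta subunits, Cacna2d1 lay near the delta level in transdifferentiated cells, and Cacna2d2 and Cacna2d3 lay below it. Cacna2d1 (chromosome 5, 15934691 to 16374511, plus strand), a binding site of gabapentin, had 26.7 and 26.4 RPKM in transdifferentiated, 7.54 and 10.4 RPKM in beta and 27.0 and 27.7 RPKM in delta libraries. The transdifferentiated libraries were 98.7% and 95.2% of the delta library of the same pool. The log2 fold change was 1.48 against beta cells (SE 0.15, limma adjusted p = 0.000597) and -0.04 against delta cells (SE 0.15, limma adjusted p = 0.894).

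Cacna2d2, another gabapentin-binding subunit, had 5.58 and 5.31 RPKM in transdifferentiated, 0.123 and 0.0800 RPKM in beta and 14.6 and 17.2 RPKM in delta libraries. Cacna2d3, which binds gabapentin poorly, had 2.94 and 3.95 RPKM in transdifferentiated, 0.0251 and 0.0662 RPKM in beta and 8.41 and 12.4 RPKM in delta libraries. Both lay between the other populations without overlap. Against beta cells the log2 fold changes were 2.55 for Cacna2d2 (SE 0.12, limma adjusted p = 8.71e-05) and 2.08 for Cacna2d3 (SE 0.20, limma adjusted p = 0.000512). Against delta cells they were -1.39 for Cacna2d2 (SE 0.12, limma adjusted p = 0.00151) and -1.34 for Cacna2d3 (SE 0.20, limma adjusted p = 0.00781).

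The stretches upstream of 4 of these genes are shown because Cacna2d1 and Cacna2d3 differ in how far the transdifferentiated level reaches the delta level, and Cacna1b and Cacna1i do so among the pores. Each is the 250 bases before the RefSeq transcript start on GRCm38.p6, written 5′ to 3′ on the strand of the gene: chr2:24763153-24763402 (minus) for Cacna1b, chr15:80286988-80287237 (plus) for Cacna1i, chr5:15934441-15934690 (plus) for Cacna2d1 and chr14:29721865-29722114 (minus) for Cacna2d3. Capitals mark the E-box CAGCTG and the GC box GGGCGG, which also appears as its reverse complement CCGCCC, where a box lies on the opposite strand.
Cacna1b: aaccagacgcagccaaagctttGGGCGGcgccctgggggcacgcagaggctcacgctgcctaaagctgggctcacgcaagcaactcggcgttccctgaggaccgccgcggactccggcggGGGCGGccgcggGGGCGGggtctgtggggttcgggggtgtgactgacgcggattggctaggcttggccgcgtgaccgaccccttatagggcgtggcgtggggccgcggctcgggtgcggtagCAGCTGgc
Cacna1i: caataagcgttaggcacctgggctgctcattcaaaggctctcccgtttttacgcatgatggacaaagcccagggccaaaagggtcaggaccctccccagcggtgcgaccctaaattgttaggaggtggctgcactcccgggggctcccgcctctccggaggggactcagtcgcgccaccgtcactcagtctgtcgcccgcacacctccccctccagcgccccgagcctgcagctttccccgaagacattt
Cacna2d1: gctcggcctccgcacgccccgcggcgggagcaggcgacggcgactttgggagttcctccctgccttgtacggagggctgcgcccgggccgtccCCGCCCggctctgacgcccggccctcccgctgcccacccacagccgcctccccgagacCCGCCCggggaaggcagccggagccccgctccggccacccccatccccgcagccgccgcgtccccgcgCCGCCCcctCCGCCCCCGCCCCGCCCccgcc
Cacna2d3: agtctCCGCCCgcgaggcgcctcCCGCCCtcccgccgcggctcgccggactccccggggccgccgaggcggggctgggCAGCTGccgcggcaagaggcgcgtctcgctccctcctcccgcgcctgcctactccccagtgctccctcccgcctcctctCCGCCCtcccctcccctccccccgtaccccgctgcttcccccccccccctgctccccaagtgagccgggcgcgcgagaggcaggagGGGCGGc
The Cacna2d1 stretch is 82.4% G and C and holds 6 GC boxes, the Cacna2d3 stretch 80.0% with 4, the Cacna1b stretch 72.0% with 3 and the Cacna1i stretch 62.4% with 0. Cacna1b and Cacna2d3 also hold 1 CAGCTG each. Over 32851 RefSeq promoters of the same length, the median content was 52.4% G and C, 32.7% held a GC box on either strand and 13.0% held CAGCTG. None of the 4 stretches holds the E-box CAGATG, the homeodomain core TAATTA, the MAF half-site TGCTGA, the TATA box TATAAA or the RE1 half-site TTCAGCACC, which 14.4%, 4.84%, 16.1%, 12.4% and 0.301% of the promoters held. Sequences were matched for 7 of the 10 genes and for 13 of 16 other channel subunits, some with more than 1 start. The part of these sequences in the expression levels was not tested.

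Within each population the pore transcripts differed in make-up, a measure that does not depend on the scale of a library. It does depend on the length assigned to each gene. L-type genes made up 53.6% and 52.4% of the summed alpha1 RPKM in transdifferentiated, 75.05% and 75.7% in beta and 32.3% and 32.6% in delta libraries. T-type genes made up 20.1% and 19.6% in transdifferentiated, 1.12% and 0.893% in beta and 44.6% and 45.6% in delta libraries. The differences between populations exceeded those between pools, although an exact permutation test of 2 against 2 libraries cannot give a p below 0.333. The P/Q-type gene held 22.1% and 23.8% in transdifferentiated, 19.7% and 19.6% in beta and 18.1% and 16.7% in delta libraries, a narrower range than that of the L-type or T-type share.

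The auxiliary subunits showed a corresponding spread. Cacnb3 made up 70.8% and 69.9% of the beta subunit RPKM in transdifferentiated, 86.6% and 85.3% in beta and 68.0% and 70.2% in delta libraries, so transdifferentiated and delta cells overlapped. Cacna2d1 made up 75.2% and 73.6% of the alpha2delta RPKM in transdifferentiated, 97.0% and 97.9% in beta and 53.5% and 48.2% in delta libraries, with no overlap between populations. Cacna2d2 and Cacna2d3 together supplied nearly all of the rest in delta cells.

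**Figure D3:**
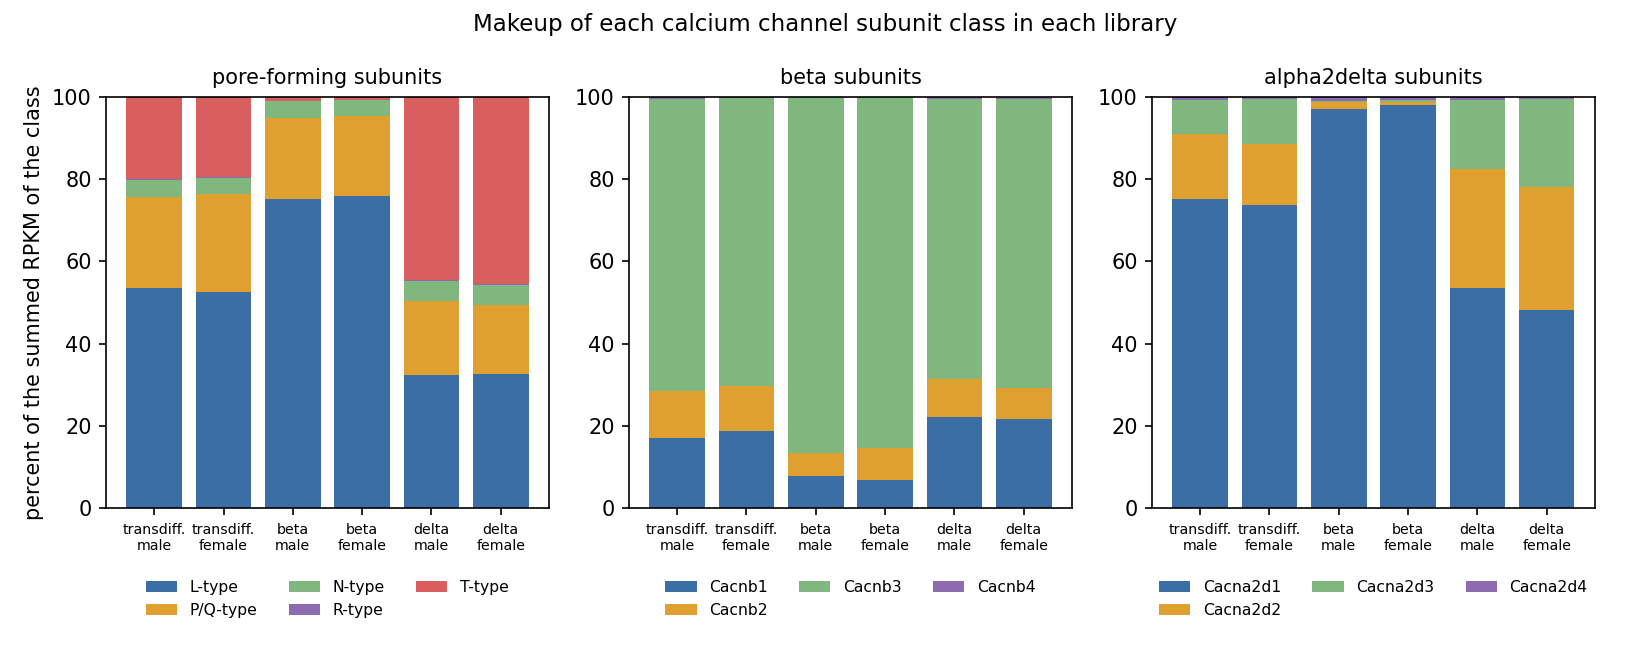
Share of each gene or current type in the summed RPKM of the pore-forming, beta and alpha2delta subunits, as stacked percentages for each library. The T-type share is 20.1% and 19.6% in transdifferentiated, 1.12% and 0.893% in beta and 44.6% and 45.6% in delta libraries.

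Set against the delta library of the same pool, the subunits lay in different ranges. In transdifferentiated libraries Cacna1h stood at 37.3% and 40.6% of the delta level and Cacna1g at 44.2% and 46.5%. Cacna1i stood at 33.8% and 34.1%, Cacna2d2 at 38.2% and 30.9% and Cacna2d3 at 34.9% and 31.9%. The delta markers Hhex, at 39.9% and 32.1%, and Ghsr, at 36.0% and 31.5%, lay within the span of these subunits. Sst itself stood at 25.8% and 22.1%. In between, Cacnb1 stood at 52.2% and 53.5%, Cacng4 at 61.2% and 56.2%, Cacnb3 at 70.4% and 62.1% and Cacna1b at 73.0% and 78.9%. Higher still, Cacnb2 stood at 83.6% and 92.2% and Cacna1a at 102% and 135% of delta, and Cacna1c at 141% and 145%. Of the alpha markers, Gcg stood at 11.1% and 14.9% and Irx1 at 9.17% and 14.5%. Irx2 at 32.9% and 36.4% and Ttr at 31.2% and 33.6% lay within the span of the T-type, Cacna2d2 and Cacna2d3 values. So did the PP marker Ppy at 35.0% and 34.8%. Both Ttr values and the lower Irx2 value fell below the lowest T-type value, 33.8%. In beta libraries Ttr stood at 40.4% and 33.3% of delta and Irx2 at 5.85% and 9.37%, against 0.371% and 0.504% for Cacna1h. The 5 alpha markers summed to 1795 to 2588 RPKM in transdifferentiated, 457 to 638 in beta and 15138 to 16506 in delta libraries, and Ppy had 5508 to 5852, 330 to 522 and 15817 to 16735 RPKM. All 5 alpha markers and Ppy were called lower in transdifferentiated than in delta cells, none of them was at 0, and their part in the T-type and alpha2delta levels was not tested. The 3 Schwann cell markers summed to 5.45 to 6.21 RPKM in transdifferentiated, 1.92 to 2.23 in beta and 8.22 to 8.48 in delta libraries. Of this list 2 were tested, and both were called higher in transdifferentiated than in beta cells and lower in beta than in delta cells, and 1 was called lower in transdifferentiated than in delta cells. Sox10 was at 0 in both delta libraries, and the part of these markers in the subunit levels was not tested.

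**Figure D4:**
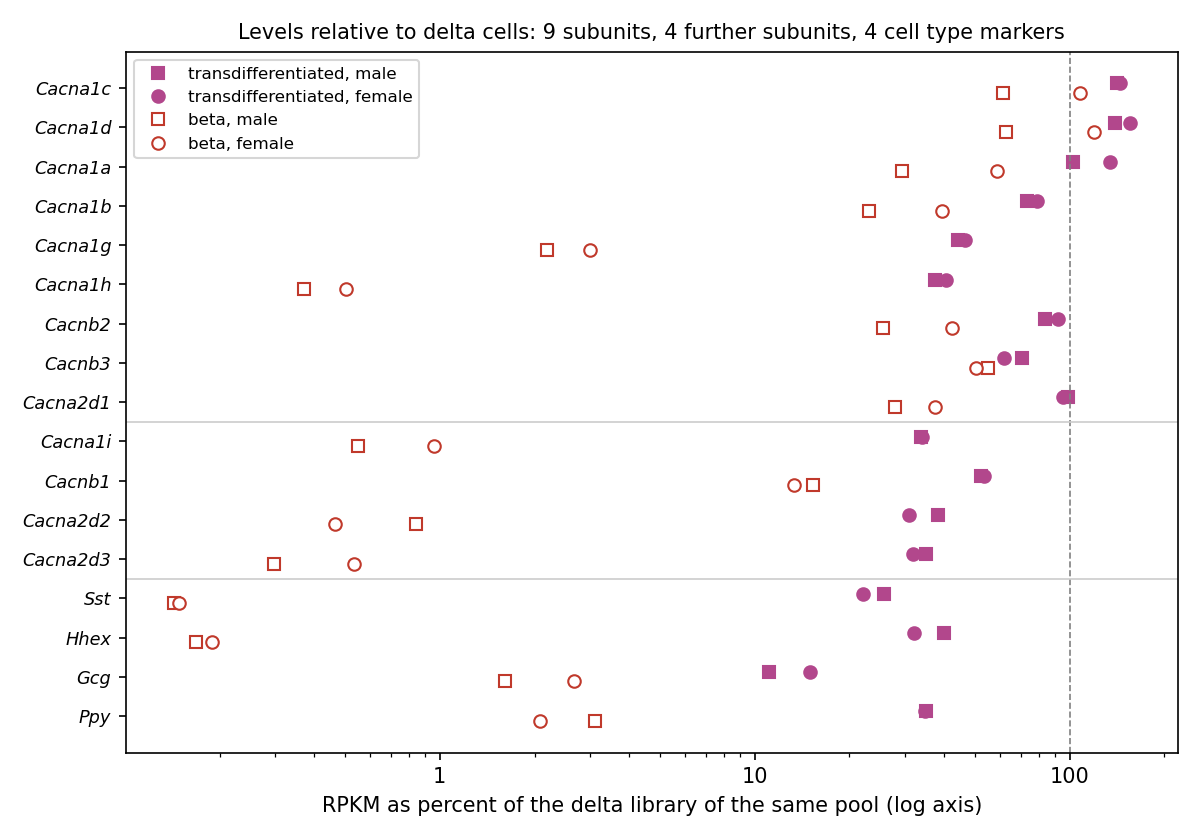
Level in transdifferentiated and beta libraries as a percentage of the delta library of the same pool, on a log axis, for 9 subunits, 4 further subunits and 4 markers. Filled symbols are transdifferentiated and open symbols beta libraries, squares are male and circles female pools, and the dashed line is the delta level. Cacna2d1, Cacna1a, Cacna1c and Cacna1d lie near or above 100% in transdifferentiated cells, and the T-type genes lie between 33.8% and 46.5%.

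Of 16 other channel subunit genes, 6 reached the filter, and they are Cacna1i, Cacnb1, Cacna2d2, Cacna2d3, Cacng2 and Cacng4. Apart from Cacnb1, these genes had at most 0.143 RPKM in beta cells and entered the tests through the other 2 populations, so a difference from beta cells was built into their being tested. In transdifferentiated against beta cells 6 were called higher and 0 lower, where 42.5% of all genes were called higher. In transdifferentiated against delta cells 0 were called higher and 5 lower, where 7.20% of all genes were called lower, and Cacng4 did not pass (-0.43, limma adjusted p = 0.0974). The 5 became 3 when the female delta library was left out. In beta against delta cells 0 were called higher and 6 lower, where 46.3% of all genes were called lower. Cacng2, which encodes a protein that traffics AMPA receptors, had 1.13 and 0.816 RPKM in transdifferentiated, 0 and 0.0266 RPKM in beta and 2.63 and 2.57 RPKM in delta libraries. The 10 others reached at most 0.758 RPKM in any library, and Cacna1s, the skeletal muscle L-type pore, was at 0 throughout.

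**Figure D5:**
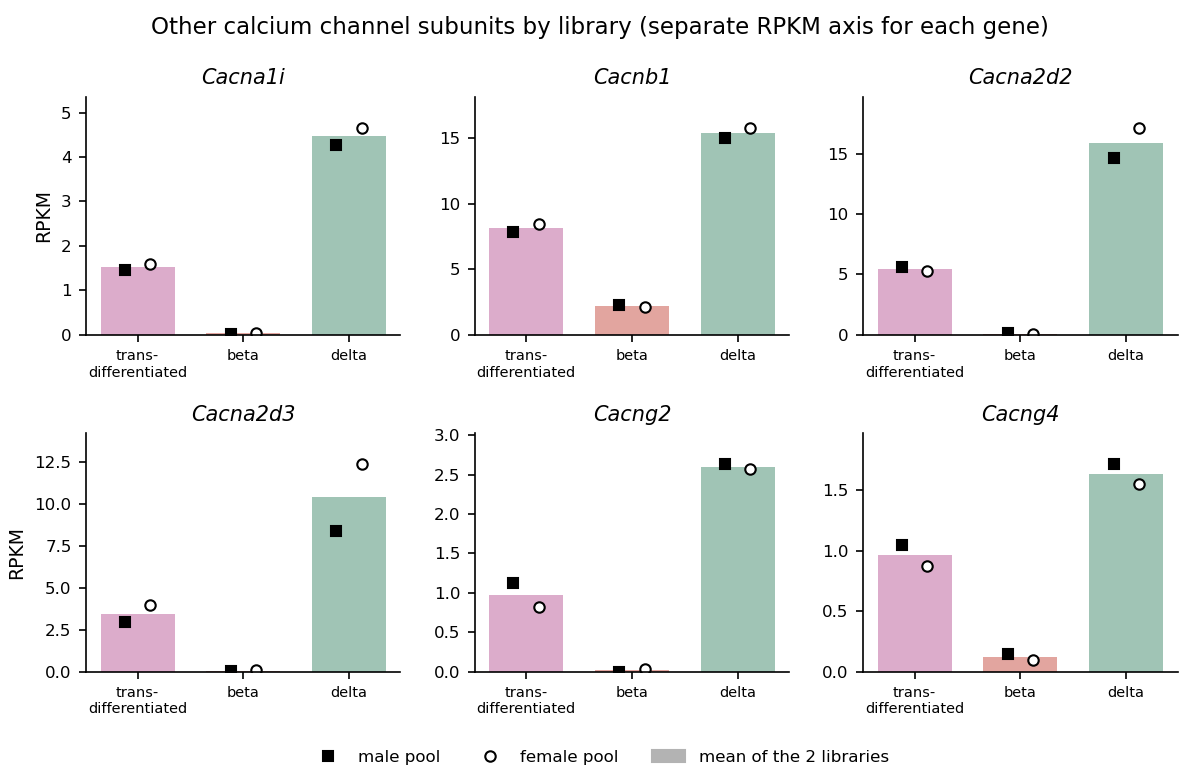
RPKM of the other calcium channel subunit genes that reached the filter, by population. Squares are male pools, open circles are female pools and bars are means of the 2 libraries. Cacnb1 has 7.84 and 8.47 RPKM in transdifferentiated, 2.30 and 2.10 in beta and 15.0 and 15.8 in delta libraries.

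Proteins that bind or regulate the channels were mixed. Of 18 symbols listed, 16 were in the table and 9 were tested. In transdifferentiated against beta cells 5 were called higher and 1 lower, where 42.5% of all genes were called higher and 8.46% lower. The counts were 3 higher and 1 lower after median-of-ratios scaling, and 3 higher and 0 lower without the male transdifferentiated library. Rimbp2, which tethers channels to the release machinery, had 58.3 and 62.1 RPKM in transdifferentiated, 20.8 and 31.5 RPKM in beta and 51.2 and 44.3 RPKM in delta libraries. Its log2 fold change was 1.20 against beta cells (SE 0.19, limma adjusted p = 0.003) and 0.33 against delta cells (limma adjusted p = 0.337). Rims2, a scaffold of the release site, was also higher than in beta cells (1.01, limma adjusted p = 0.00892), as were the small GTPases Gem (1.08, limma adjusted p = 0.00184) and Rem2 (0.60, limma adjusted p = 0.00614), which inhibit high-voltage-activated channels, and the calmodulin gene Calm2 (0.48, limma adjusted p = 0.0118). Calm3, another calmodulin gene, was lower (-0.47, limma adjusted p = 0.0188).

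In transdifferentiated against delta cells, Cabp1, a calmodulin-like regulator of channel inactivation, was called higher (0.67, limma adjusted p = 0.0202). Cbarp, which lowers channel activity (-0.98, limma adjusted p = 0.0178), Gem (-0.61, limma adjusted p = 0.0467) and Rem2 (-0.99, limma adjusted p = 0.00351) were called lower. Of all genes tested in this comparison, 5.53% were called higher and 7.20% lower. Leaving out a transdifferentiated or a delta library gave 0 higher and 1 or 2 lower, and leaving out a beta library gave 1 higher and 5 lower. In beta against delta cells, where 11.7% of all genes were called higher and 46.3% lower, Cabp1 was called higher (0.49, limma adjusted p = 0.0168). Gem (-1.70, limma adjusted p = 0.000216), Rem2 (-1.59, limma adjusted p = 9.7e-05), Rims2 (-1.39, limma adjusted p = 0.00195), Cbarp (-1.27, limma adjusted p = 0.00138), Calm2 (-0.88, limma adjusted p = 0.000808) and Rimbp2 (-0.87, limma adjusted p = 0.00847) were called lower. Of the 9 tested, 1 was called higher and 7 lower in this comparison, not all of them named here. After median-of-ratios scaling the counts were 2 higher and 5 lower. They were also 2 higher and 5 lower when the scale was set without Ins1 and Ins2, so some of these calls depended on the scale.

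The beta libraries differed from each other for several subunits. The female beta library exceeded the male one by 0.75 for Cacna1d, 0.64 for Cacna1a, 0.62 for Cacna1c and 0.41 for Cacna2d1 on the log2 scale, against a median of 0.10 over all genes tested. It exceeded the male one by 0.03 for Cacna1h and by 0.02 for Cacnb3. Summed over the 5 acinar markers, the transdifferentiated libraries had 1796 (male) and 130 RPKM (female), the beta libraries 6636 (male) and 256 RPKM (female), and the delta libraries 472 to 613 RPKM. Their part in the difference between pools was not tested, and each sex has 1 library per population, so pool and library cannot be told apart.

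Likeness was ranked and counted among the genes tested, leaving out symbols of Gm plus digits or ending in Rik. The patterns most like that of Cacna1h over the 6 libraries, by Pearson correlation of log2(RPKM + 1), were those of Ptprz1, Ghsr and Ampd3, with r of 0.9997, 0.9994 and 0.9992. For Cacna1g they were Ccdc88c, Nhs and Pak1, each at 0.9997. For Cacna2d1 they were Tspan2 at 0.9987, Zscan20 at 0.9987 and Atp11b at 0.9986. The 6 libraries fall into 3 groups, and 322 of the genes ranked exceeded an r of 0.99 with Cacna1h, 358 with Cacna1g and 292 with Cacna2d1, so these values describe shared order among populations.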

How the data were processed

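RNA of 6 sorted samples was turned into libraries with the TruSeq RNA v2 kit, per the labels' protocols. The authors deposited 1 table of RPKM for 46959 symbols, and STAR 2.5, featureCounts and edgeR 3.14.0 on GRCm38.p4 are named in the submitters' processing notes, with no settings. Here 27 date-like symbols were dropped. Tests used log2(RPKM + 1) of genes that reached 1 RPKM in 2 or more of the 6 libraries, in a limma-trend fit (limma 3.58.1, R 4.3.3) over the 3 populations, 2-sided, with Benjamini-Hochberg adjustment. The test was checked on simulated data with independent normal noise, which left out any correlation between libraries of the same pool. Read depth was recovered from whole-read steps with GENCODE M21 exon lengths, matched to 44027 symbols. Within 0.01 read, 83.4% to 86.4% of values under 50 reads came out whole, and precision at low values is limited to counting error. Per the series text, 1 set of islets gave all 3 populations of a sex, which pairs the libraries by pool, although the sample titles carry an unexplained number that is not shared between populations. Deviations of the pools from the group means correlated at 0.47 between transdifferentiated and beta, 0.36 between transdifferentiated and delta and 0.24 between beta and delta libraries. Alternatives were other pseudocounts, no filter, 2 other scalings, the pool as a block and each library left out. All 10 subunits are described, other subunits and partners are named where called, except a few genes, markers included, that are not reported here, and likeness was ranked for the 3 with the widest range of group means. The members and lists were chosen with earlier results of these data known. Promoter sequences are from RefSeq (GRCm38.p6).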

Additional observations from a re-analysis of the deposited data

Results flagged for a closer look

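For 2 subunits, the male and the female pool moved in opposite directions between beta and delta cells. Cacna1d differed by -0.63 on the log2 scale in the male pool and by 0.25 in the female pool. Cacna1c differed by -0.57 in the male pool and by 0.10 in the female pool. With 1 library per pool and population, the difference between pools was not tested. After median-of-ratios scaling the male-pool differences were -0.09 for Cacna1d and -0.10 for Cacna1c, and the female-pool differences were 0.61 and 0.43.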

How the results depend on the processing

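Of 324 alternative values for the 9 tested subunits, 286 kept their direction and side of the threshold, 23 lost and 6 gained a call, and 9 changed sign. Transdifferentiated against beta, Cacnb3 was -0.14 after median-of-ratios scaling. Transdifferentiated against delta, Cacnb2 was 0.12 and Cacna2d1 0.27 when the scale was set without Ins1 and Ins2. Beta against delta, Cacna1c was 0.16, 0.14 and 0.075, and Cacna1d 0.26, 0.23 and 0.19, after median-of-ratios scaling, without the insulin genes and without the male beta library. Without the female beta library both were called lower, Cacna1c at -0.55 (limma adjusted p = 0.00746) and Cacna1d at -0.57 (0.0064). The causes were not tested.

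With each library left out in turn, subunits called numbered 6 to 9 for transdifferentiated against beta, 2 to 5 for transdifferentiated against delta and 7 to 9 for beta against delta cells. The 5 arose without either beta library. All genes called numbered 4120 to 7047, 502 to 2075 and 4893 to 7769 in the same comparisons, with the lowest counts without the male transdifferentiated, the female delta and the male delta library. Leaving out any transdifferentiated or delta library gave at most 781 calls between those populations, against 1657 with all 6. A population left with 1 library was assumed to vary like the others. With the replicate block, 9, 3 and 7 subunits were called and no call of a subunit changed. Against beta cells, no filter ended the calls of Cacna1c (limma adjusted p = 0.0795) and Cacna1d (0.103). Counting error limits the beta values of Cacna1g, Cacna1h and Cacna1e.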
